A study of Mus musculus with 9 samples.

Results

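Sympathetic neuron genes were followed across mouse aortas from an angiotensin II model of abdominal aortic aneurysm. The set held 37 genes, listed by symbol for their roles in noradrenaline handling, neuronal identity, axon structure and transmitter release and found in the files by their Entrez Gene ID, and all 37 were present among the 18830 genes counted. Bulk RNA-seq of aorta gave 9 libraries, 3 in each of 3 groups. All groups, controls included, carried an ApoE knockout, a genotype prone to high cholesterol and atherosclerosis. The sham control group received no angiotensin II (the series' design text names saline), and its harvest day is not stated in the sources used here. The treated groups received angiotensin II (Ang II), a peptide that raises blood pressure, at 1000 ng/kg/min from an implanted osmotic pump and were labelled 14 days and 28 days. The design text places the harvested segment in the suprarenal abdominal aorta. The source label reads aorta while the sample titles read muscle. Strain background, age and sex were not given in the sources used here, nor whether each library came from a separate animal, so p-values measure the spread between these samples, which may be technical.

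Sympathetic neurons send axons into the outer wall of arteries, where released noradrenaline constricts smooth muscle. Tyrosine hydroxylase, aromatic amino acid decarboxylase and dopamine beta-hydroxylase build noradrenaline in sequence, the vesicular transporter packs it, and the plasma membrane transporter takes it back up. The cell bodies lie in ganglia, several of which sit beside the abdominal aorta, and these cell bodies hold most of the neurons' mRNA.

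The genes were nearly silent in some libraries and abundant in others of the same group. Levels are given in CPM, a gene's count scaled to the size of its library after TMM correction for library composition, and always in the order of replicates 1, 2 and 3. Summed over the 37 genes, the sham libraries held 487, 16729 and 143 CPM, the 14-day group 6536, 196 and 534, and the 28-day group 143, 7484 and 3608. The highest library exceeded the lowest by 117-fold within the sham group, 33.4-fold at 14 days and 52.3-fold at 28 days, and the ranges of the 3 groups overlapped. Group means of the sum were 5786 ± 9478 CPM in sham, 2422 ± 3567 at 14 days and 3745 ± 3672 at 28 days (SD, n = 3 each). In sham replicate 2 the genes took 1.72% of all counts, against 0.013% in sham replicate 3. In bulk tissue, fewer cells of a type and less RNA per cell cannot be told apart.

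**Figure D1:**
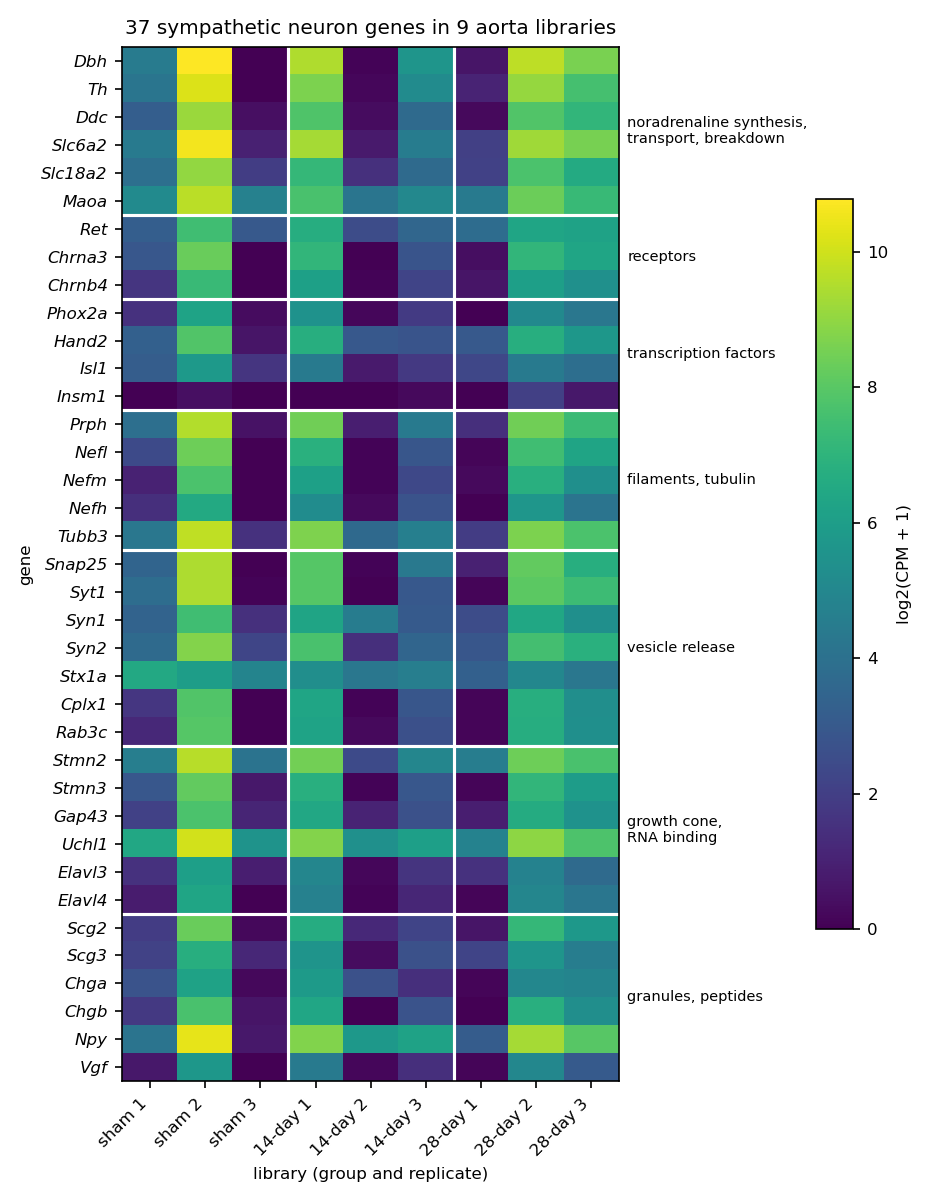
Level of each of the 37 genes (rows, grouped by role) in each of the 9 libraries (columns, grouped by sham, 14 days and 28 days), as log2(CPM + 1) on a colour scale from 0 (dark) up to the highest value (yellow). Sham replicate 2, 14-day replicate 1 and 28-day replicates 2 and 3 are bright in almost every row, and Stx1a and Insm1 do not follow the other rows.

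The libraries differed in other ways too. Total expected counts ran from 9609690 to 14923936 per library. Smooth muscle genes, which mark the labelled tissue, were present in all 9 libraries at a summed 1988 to 28605 CPM, and brown fat genes at 1093 to 9582 CPM. Skeletal muscle genes summed to 13744 and 4704 CPM in 28-day replicates 1 and 2, to 94.9 CPM in 28-day replicate 3, and to 3.93 to 43.7 CPM in the sham and 14-day libraries.

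Of the 37 genes, 36 passed the low-count filter of the test. Insm1, a transcription factor of neuroendocrine development, was left out with at most 43 counts in any library. The list was written with earlier results of these data known, so the counts that follow describe these libraries and are no independent support. Of the 36 tested members, 35 were highest in sham replicate 2, as were 19.7% of all 14741 tested genes. For the same 35, the 4 highest libraries were sham replicate 2, 14-day replicate 1 and 28-day replicates 2 and 3 in some order, a set shared by 7.18% of all tested genes. The exception to each count was Stx1a. The 3 lowest libraries were sham replicate 3, 14-day replicate 2 and 28-day replicate 1 for 28 of the 36 genes, against 3.51% of all tested genes. The SD of log2 CPM over the 9 libraries had a median of 3.47 over the 36 genes and of 0.44 over all tested genes. It was largest for Dbh at 5.35 and smallest for Stx1a at 1.0.

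Promoter letters were read for all members with a window, Stx1a included, because motifs are a feature the list did not use. RefSeq windows on GRCm38.p6, from 250 bases before to 50 after a gene's start, matched 27 of the 37 genes. The cAMP response element, searched as TGACGTCA on both strands, lay in the windows of 5 of these 27 genes, namely Th, Scg2, Chgb, Syn1 and Slc18a2, and in 2.03% of all 27025 genes with a window. Stretches of 120 bases that end just before the start are shown for 3 of these 5 genes, and for Dbh, which has no match, with the motif in capitals and each read along the gene's own strand.
Th, chr7:142899996-142900115, minus strand: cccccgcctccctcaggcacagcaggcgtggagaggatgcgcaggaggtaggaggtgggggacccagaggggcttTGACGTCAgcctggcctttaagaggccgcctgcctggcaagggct
Scg2, chr1:79440027-79440146, minus strand: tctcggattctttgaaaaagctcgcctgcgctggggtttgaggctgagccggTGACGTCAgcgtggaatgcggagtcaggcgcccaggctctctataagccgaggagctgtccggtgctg
Chgb, chr2:132781522-132781641, plus strand: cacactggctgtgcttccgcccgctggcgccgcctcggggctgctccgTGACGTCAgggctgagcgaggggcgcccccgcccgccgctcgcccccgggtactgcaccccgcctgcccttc
Dbh, chr2:27165387-27165506, plus strand: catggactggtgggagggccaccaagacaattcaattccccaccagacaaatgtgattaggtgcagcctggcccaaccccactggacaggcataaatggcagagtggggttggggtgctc
The first base of the motif lies 45 bases before the start in Th, 68 in Scg2, 72 in Chgb, 159 in Syn1 and 4 in Slc18a2, where it spans the start. The E-box CAGCTG was in 11 of the 27 windows against 18.3% of all genes, the E-box CAGATG in 4 against 19.2%, and the homeodomain core TAATTA in 2 against 6.12%. The parts of the RE1 element, which binds a repressor of neuronal genes, were TTCAGCACC in 2 windows (Scg2 and Syn1) against 0.433% of genes and GGACAGC in 3 (Scg2, Slc18a2 and Tubb3) against 7.59%. A match is a description of the letters and not evidence of binding.

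The genes of noradrenaline synthesis, transport and breakdown were among those with the widest range. Gene coordinates refer to GRCm38.p6. Dbh (Entrez 13166, chromosome 2, 27165507 to 27183204), the enzyme of the last step to noradrenaline, had 21.7, 1755 and 0 CPM in sham, then 720, 0.072 and 47.9 after 14 days of Ang II and 0.547, 833 and 387 after 28 days. The 0 stands for no counts in sham replicate 3, so that sham replicate 2 was at least 6572-fold higher when 3 counts in that library are taken as its limit, which covers counting error only. Each group held a library with 720 CPM or more and another below 1 CPM, so the groups overlapped along almost their whole range. Th (Entrez 21823, chromosome 7, 142892779 to 142899995), the rate-limiting enzyme, followed with 17.3, 1171 and 0 CPM in sham, then 398, 0.144 and 36.0 after 14 days of Ang II and 1.09, 542 and 191 after 28 days. Sham replicate 2 was at least 4386-fold above sham replicate 3. Ddc, the decarboxylase between these steps, ranged from 0.219 CPM in 28-day replicate 1 to 562 CPM in sham replicate 2.

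The transporters ran in parallel with the enzymes. Slc6a2 (Entrez 20538, chromosome 8, 92960470 to 93001667), the noradrenaline reuptake transporter, stood at 20.9, 1534 and 0.979 CPM in the sham libraries, at 639, 0.72 and 21.8 in the 14-day group and at 3.17, 608 and 382 in the 28-day group. Slc18a2, the vesicular monoamine transporter, had 14.4, 519 and 2.85 CPM in sham, then 145, 1.8 and 12.3 after 14 days of Ang II and 3.28, 213 and 95.7 after 28 days. Neither transporter was at 0 in any library, unlike Dbh and Th. Maoa (Entrez 17161, chromosome X, 16619698 to 16687812), a mitochondrial enzyme that breaks down noradrenaline and is also made outside neurons, stood at 35.2, 804 and 25.6 CPM in the sham libraries, at 207, 17.2 and 31.8 in the 14-day group and at 20.0, 331 and 153 in the 28-day group. Its order of libraries matched that of Dbh at the top, yet it kept 17.2 CPM or more in each of the 9 libraries.

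Receptor genes split in the low libraries. Chrna3, a subunit of the nicotinic receptor through which ganglionic neurons receive their input, had 6.5, 321 and 0 CPM in sham, then 136, 0 and 5.91 after 14 days of Ang II and 0.328, 136 and 80.5 after 28 days. Chrnb4, its partner subunit, stood at 2.13, 155 and 0 CPM in the sham libraries, at 68.1, 0.072 and 3.6 in the 14-day group and at 0.547, 65.9 and 41.5 in the 28-day group. The 2 genes are neighbours on chromosome 9, 1592 bases apart. Ret, the receptor tyrosine kinase for ligands of the GDNF family, had 8.31, 176 and 7.03 CPM in sham, then 103, 4.61 and 10.9 after 14 days of Ang II and 13.1, 80.6 and 73.0 after 28 days. Ret thus stayed above 4 CPM in every library, including those without Chrna3.

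Transcription factors of the sympathetic lineage were lower in CPM and followed the same libraries, apart from Insm1. Phox2a, a homeodomain factor that switches on noradrenergic genes, stood at 1.92, 75.9 and 0.267 CPM in the sham libraries, at 44.7, 0.144 and 2.51 in the 14-day group and at 0, 33.7 and 18.1 in the 28-day group. Hand2, which keeps up the noradrenergic state and acts in other mesenchyme as well, had 8.84, 228 and 0.534 CPM in sham, then 108, 6.84 and 5.97 after 14 days of Ang II and 7.01, 106 and 50.6 after 28 days. In 14-day replicate 2, with 1 count of Dbh, Hand2 was thus slightly above 14-day replicate 3. Isl1, a factor of sympathetic and sensory neuron development, ranged from 0.72 CPM in 14-day replicate 2 to 55.6 CPM in sham replicate 2. Insm1 had 43 counts in 28-day replicate 2, 8 in 28-day replicate 3, 5 in sham replicate 2, 3 in 14-day replicate 3 and 0 in the other 5 libraries. It was the only member whose level in sham replicate 2 was below that in 28-day replicate 2, at 0.116 of it.

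Filament genes of the axon were at or near 0 in the low libraries, and the tubulin gene kept a higher level there. Prph, peripherin, an intermediate filament of peripheral neurons, stood at 14.1, 733 and 0.445 CPM in the sham libraries, at 344, 0.864 and 20.2 in the 14-day group and at 1.75, 347 and 160 in the 28-day group. The neurofilament subunits Nefl, Nefm and Nefh, which set axon calibre, reached 340, 212 and 92.7 CPM in sham replicate 2 and had no counts in sham replicate 3. Nefl was at least 1273-fold higher in the former. Nefl and Nefm lie on chromosome 14 with 30450 bases between them. Tubb3, the neuronal beta-tubulin, had 18.6, 853 and 1.87 CPM in sham, then 408, 11.9 and 24.0 after 14 days of Ang II and 2.74, 405 and 211 after 28 days, so that 14-day replicate 2 held several times the level of sham replicate 3.

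Most genes of vesicle release showed the same contrast, and Stx1a did not. Snap25, a SNARE protein of the fusion complex, stood at 10.1, 702 and 0 CPM in the sham libraries, at 241, 0.072 and 19.4 in the 14-day group and at 0.985, 294 and 108 in the 28-day group. Syt1, the calcium sensor of release, had 13.5, 708 and 0.089 CPM in sham, then 243, 0 and 6.86 after 14 days of Ang II and 0.109, 266 and 165 after 28 days. Cplx1, a complexin that binds the fusion complex, and Rab3c, a small GTPase of synaptic vesicles, peaked at 227 and 244 CPM in sham replicate 2 and had no counts in sham replicate 3. Syn1 and Syn2, synapsins that tether the vesicle pool, reached 176 and 440 CPM in sham replicate 2 and 1.78 and 3.74 CPM in sham replicate 3. In 14-day replicate 2, Syn1 stood at 22.3 CPM while Syn2 stood at 1.73 CPM. The Syn1 gene body overlaps Timp1, which was at its highest in that library (367 CPM) and between 7.08 and 111 CPM in the others, and strandedness of the counting was not given in the sources used here, so reads of the overlap cannot be assigned with certainty. Gene bodies of Chrna3, Nefh, Phox2a, Syt1 and Syn2 also overlap other genes. Stx1a (Entrez 20907, chromosome 5, 135023482 to 135051100), syntaxin 1A, the membrane partner of Snap25, stood at 89.7, 63.4 and 27.7 CPM in the sham libraries, at 39.6, 18.4 and 23.1 in the 14-day group and at 8.76, 30.9 and 18.4 in the 28-day group. It was highest in sham replicate 1, and its lowest sham value lay within the range of each treated group.

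Genes of axon growth and RNA binding differed mainly in the level kept in the low libraries. Stmn2 (Entrez 20257, chromosome 3, 8509527 to 8561604), a tubulin-binding protein of growing axons, had 23.7, 797 and 16.1 CPM in sham, then 355, 4.39 and 29.6 after 14 days of Ang II and 22.4, 339 and 203 after 28 days. Its relative Stmn3 reached 292 CPM in sham replicate 2 and had 0.072 CPM in 14-day replicate 2. Gap43 (Entrez 14432, chromosome 16, 42248552 to 42340651), a growth cone protein, stood at 3.3, 212 and 1.16 CPM in the sham libraries, at 87.6, 1.08 and 5.36 in the 14-day group and at 0.876, 96.7 and 44.0 in the 28-day group. Gap43 was low in the same 3 libraries as Dbh without reaching 0. Uchl1, a ubiquitin hydrolase abundant in neurons, had 86.4, 1062 and 45.6 CPM in sham, then 443, 41.9 and 66.5 after 14 days of Ang II and 26.5, 493 and 216 after 28 days. It was the largest of the 37 genes by CPM in sham replicate 3 and 28-day replicate 1, where the sum of all 37 was 143 CPM. Elavl3 and Elavl4, RNA-binding proteins of the neuronal Hu family, peaked at 66.7 and 79.5 CPM in sham replicate 2.

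Granule proteins and peptides closed the list, and Npy and Chga departed from it in single libraries. Npy (Entrez 109648, chromosome 6, 49822710 to 49829507), a peptide released with noradrenaline, stood at 16.6, 1321 and 0.623 CPM in the sham libraries, at 429, 52.4 and 72.5 in the 14-day group and at 7.77, 640 and 251 in the 28-day group. The 52.4 CPM of 14-day replicate 2 made Npy the largest of the 37 there, in a library with 1 count of Dbh and 2 of Th. Chga, chromogranin A, a core protein of secretory granules, had 5.75, 73.8 and 0.178 CPM in sham, then 57.5, 5.33 and 1.77 after 14 days of Ang II and 0.109, 31.2 and 28.5 after 28 days. Its relatives Chgb and Scg2 reached 202 and 315 CPM in sham replicate 2 and at most 0.534 CPM in sham replicate 3. Scg3, a granule sorting protein, and Vgf, a precursor of secreted peptides, peaked at 106 and 51.6 CPM in sham replicate 2. Per kilobase of merged annotated exons, which joins all isoforms, the order of levels in sham replicate 2 began with Npy at 2333 CPM per kb, Dbh at 652, Uchl1 at 651, Th at 495 and Tubb3 at 457.

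No member passed the test in any comparison of the groups. The comparison of 14 days with sham asks which genes differ after the shorter infusion. By edgeR's quasi-likelihood test with Benjamini-Hochberg adjustment over all tested genes, 0 of 36 members had an adjusted p under 0.05, as did 0% of all tested genes. With no adjustment, 0 of 36 had p under 0.05, against 23.5% of all tested genes. By DESeq2, 0 of the 35 members with an adjusted p passed, against 13.4% of genes, and Ret had no adjusted p. No member had groups that did not overlap, against 26.1% of genes.

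At 28 days against sham the result for the members was alike. By edgeR 0 of 36 passed, against 0% of all tested genes, 1 of 36 had an unadjusted p under 0.05, against 13.9%, and by DESeq2 0 of 35 passed, against 6.62%. Groups overlapped for each of the 36 members, while 21.7% of all tested genes had groups that did not. The member with the unadjusted p under 0.05 was Stx1a, which is discussed here because of that value. It averaged 60.3 ± 31.1 CPM in sham, 27.1 ± 11.1 at 14 days and 19.3 ± 11.1 at 28 days (SD, n = 3 each). Its edgeR log2 fold change at 28 days was -1.64 ± 0.57 (SE; adjusted p = 0.261), and its DESeq2 adjusted p was 0.0655.

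At 28 against 14 days, the same counts were 0 of 36 by edgeR (0% of all tested genes), 0 of 36 with no adjustment (6.13%) and 0 of 35 by DESeq2 (0.805%). Here too no member had groups that did not overlap (10.1%). The 3 comparisons share groups, so their values are given for each comparison alone.

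The size and even the sign of the fitted differences rested on single libraries. The median edgeR log2 fold change over the 36 members was -1.21 at 14 days and -0.59 at 28 days against sham, beside -0.07 and -0.08 over all tested genes, and 36 of 36 members had a negative value in each. Measured as a difference of mean log2 CPM, which gives each library equal weight, the median over members was -0.20 at 14 days and 0.96 at 28 days, opposite in sign to the edgeR value at 28 days. Without sham replicate 2 the edgeR medians were 3.88 and 4.46, and without 14-day replicate 1 the median at 14 days was -4.51. At 28 against 14 days the median was 0.62, beside -0.05 over all tested genes. It was 3.82 without 14-day replicate 1 and -0.41 without 28-day replicate 2.

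Single members gave the same picture. Dbh averaged 592 ± 1007 CPM in sham, 256 ± 403 at 14 days and 407 ± 417 at 28 days (SD, n = 3 each). Its edgeR log2 fold change was -1.21 ± 2.89 at 14 days (SE; adjusted p = 0.82) and -0.54 ± 2.86 at 28 days (adjusted p = 0.966). Each standard error exceeded the fold change, and without sham replicate 2 the values were 4.57 and 5.23. For Th the values were -1.45 ± 2.74 (adjusted p = 0.776) and -0.70 ± 2.70 (adjusted p = 0.954), and without sham replicate 2 they were 4.08 and 4.83. Npy had -1.27 ± 2.15 (adjusted p = 0.753) and -0.58 ± 2.12 (adjusted p = 0.952), or 4.43 and 5.12 without that library. The axon genes were no different in this respect. Stmn2 had -1.11 ± 1.85 (adjusted p = 0.75) and -0.57 ± 1.83 (adjusted p = 0.947), or 2.71 and 3.24 without sham replicate 2. Gap43 had -1.20 ± 2.15 (adjusted p = 0.765) and -0.61 ± 2.12 (adjusted p = 0.951), or 3.82 and 4.41 without it. Maoa, with its level in the low libraries, had the smallest standard errors of the 6 genes, at -1.76 ± 1.58 (adjusted p = 0.545) and -0.78 ± 1.54 (adjusted p = 0.923), or 1.49 and 2.46 without sham replicate 2.

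**Figure D2:**
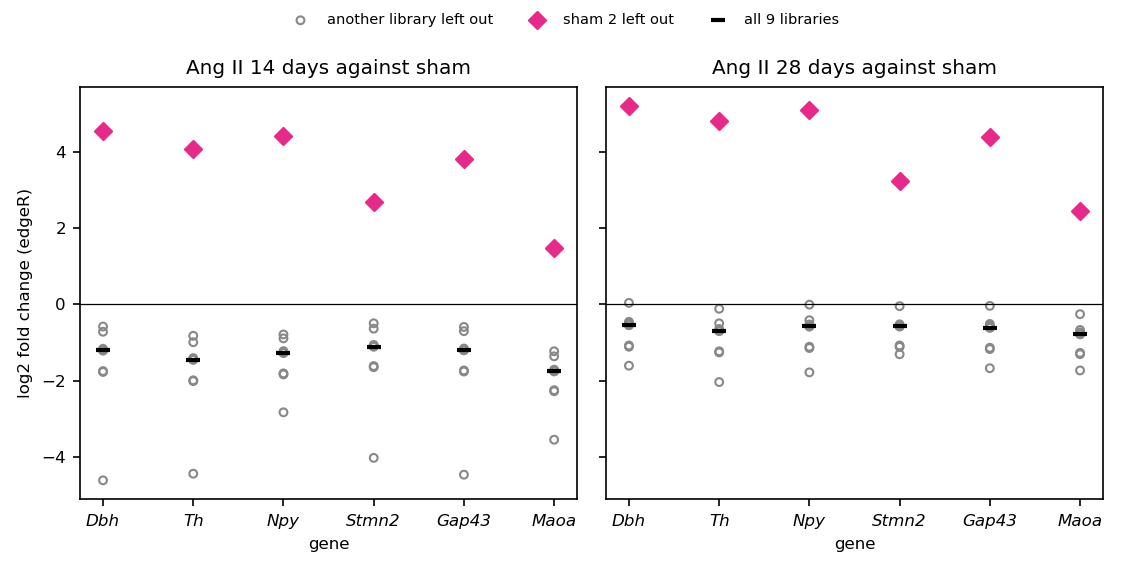
Fitted edgeR log2 fold change (vertical axis) of 6 genes (horizontal axis) at 14 days (left) and 28 days (right) against sham, with all 9 libraries (black bars), with sham replicate 2 left out (diamonds) and with each other library left out in turn (circles). For Dbh the values at 14 days run from -4.63 to 4.57, and the diamonds lie above 1 for all 6 genes in each panel.

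In the 4 libraries where the genes were abundant, their levels kept a nearly fixed proportion. Taken relative to Dbh of the same library, 29 of 35 members varied by less than 1.5-fold between sham replicate 2, 14-day replicate 1 and 28-day replicates 2 and 3, and the median ratio of highest to lowest was 1.32. Gap43 was the steadiest, at 0.121, 0.122, 0.116 and 0.114 of Dbh, and Th stood at 0.667, 0.553, 0.65 and 0.494. The 6 that varied more were Maoa, Ret, Phox2a, Stx1a, Vgf and Chga, and Chga varied most, from 0.0374 in 28-day replicate 2 to 0.0799 in 14-day replicate 1. Across the members the level in sham replicate 2 was a median 2.18 times that in 28-day replicate 2, with quartiles of 2.1 and 2.38, and 2.46 times that in 14-day replicate 1, with quartiles of 2.24 and 2.92. Within the 28-day group, replicate 2 stood a median 2.16 times above replicate 3. The last 2 medians cover the 36 members with at least 10 counts in the second library named. These ratios come from single libraries and have no replicate error.

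**Figure D3:**
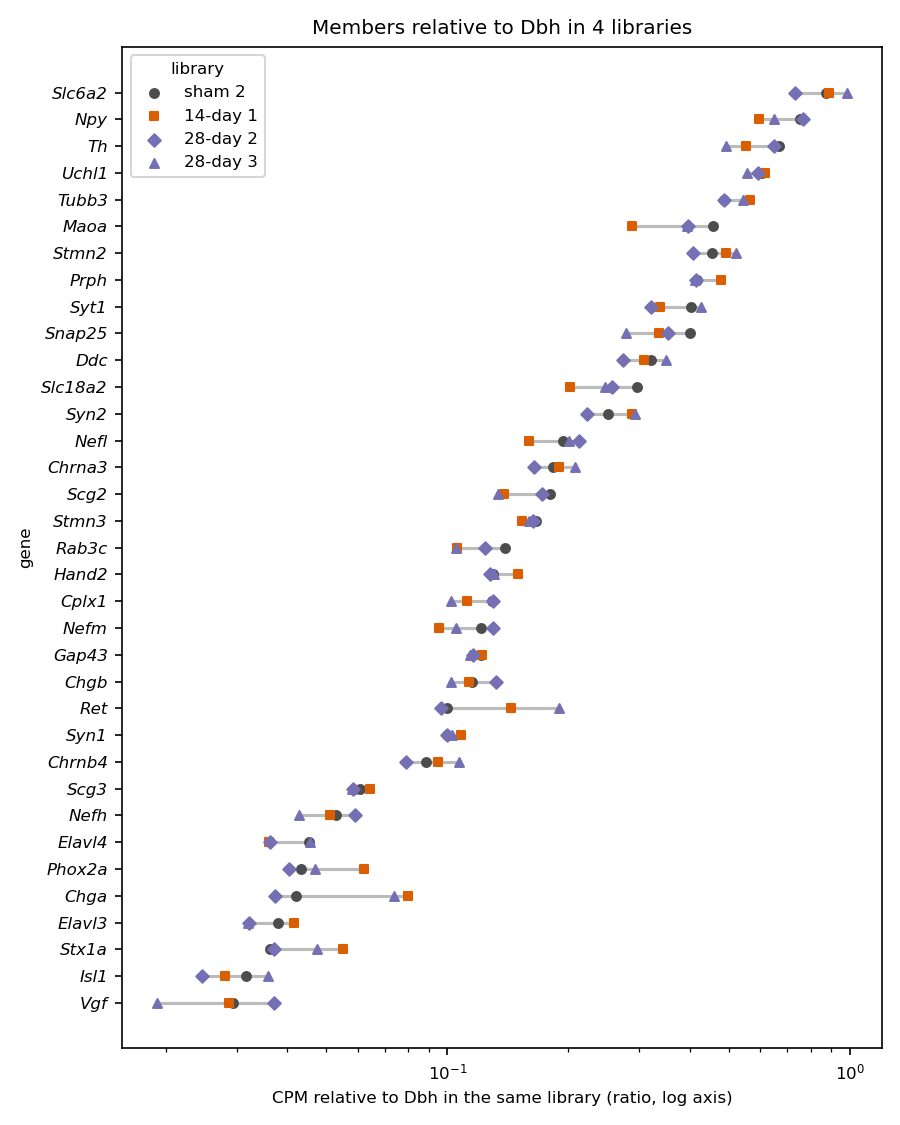
CPM of 35 members divided by CPM of Dbh in the same library (horizontal log axis) for sham replicate 2 (circles), 14-day replicate 1 (squares), 28-day replicate 2 (diamonds) and 28-day replicate 3 (triangles), with a grey line from the lowest to the highest. The points of most genes lie close together, with a median span of 1.32-fold, and Chga and Ret span 2.14-fold and 1.95-fold.

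Other genes of the noradrenergic pathway followed the members in part. Of 10 genes for cofactor synthesis, vesicle function and breakdown, 6 were highest in sham replicate 2, among them Cyb561, an electron carrier of the vesicle membrane that serves dopamine beta-hydroxylase (605 CPM there, at most 285 CPM in the others), and Gch1, which starts synthesis of the tyrosine hydroxylase cofactor (106 CPM, against 5.34 to 49.9). By edgeR 0 of the 9 tested genes passed in any comparison. With no adjustment 3 of 9 were lower at 14 days than in sham (Pts, Spr and Qdpr), where 23.5% of all tested genes had such a p in either direction, and 0 in the other comparisons. By DESeq2, which called 13.4% of all tested genes, Pts alone of the 9 fell at 14 days, from 56.6 to 73.9 CPM in sham to 31.0 to 48.1 CPM.

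The remaining fate factors ran with the members. All 7 of them peaked in sham replicate 2, led by Gata2 at 110 CPM and Hand1 at 81.5 CPM. Hand1 had no counts in sham replicate 3, 14-day replicate 2 and 28-day replicate 1. The nicotinic subunits Chrna5, Chrna7 and Chrnb2 peaked there as well, at 14.3, 4.36 and 38.3 CPM, and Chrna4 stayed under 1 CPM everywhere. None of the 7 factors and none of the 3 tested subunits passed by edgeR, with no adjustment or by DESeq2 in any comparison.

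A neurotrophin receptor tracked the members, and the neurotrophic factors did not. Ngfr, a receptor shared by the neurotrophins, had 7.25, 623 and 1.42 CPM in sham, then 292, 1.01 and 13.5 after 14 days of Ang II and 4.93, 302 and 153 after 28 days. None of the 5 factors was highest in sham replicate 2. Ntf3 (9.66 to 29.8 CPM in sham, 4.30 to 6.90 CPM at 28 days) and Nrtn (11.4 to 31.0 and 4.08 to 8.10 CPM) fell at 28 days by DESeq2. In that comparison DESeq2 called 6.62% of all tested genes. By edgeR 0 of the 4 factors tested passed in any comparison. Ntf3 and Nrtn had an unadjusted edgeR p under 0.05 at 28 days, as did 13.9% of all tested genes. Of the 6 receptors, Ntrk3 alone fell at 14 days by DESeq2, which called 13.4% of all tested genes there. Ntrk3 went from 136 to 329 CPM in sham to 31.1 to 111 CPM, and 0 of the 6 passed by edgeR. Of 10 tested receptors for noradrenaline and NPY, 0 passed by edgeR. By DESeq2 1 of the 10 passed at 14 days, beside the same 13.4% of all tested genes. This was Adrb3, the beta receptor of brown fat, which fell from 206 to 289 CPM in sham to 40.6 to 133 CPM. Of the 12 listed, 4 were highest in sham replicate 2, which include the alpha-2 receptors Adra2a (63.5 CPM), Adra2b (14.0 CPM) and Adra2c (16.7 CPM).

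Markers of cells that accompany or resemble sympathetic neurons were read beside the members. Schwann cell and satellite glia genes, 14 of 16 of which were highest in sham replicate 2, summed to 376, 1738 and 321 CPM in sham, then to 1026, 512 and 627 after 14 days of Ang II and to 387, 923 and 627 after 28 days. The glial sum was highest in sham replicate 2, 14-day replicate 1 and 28-day replicate 2. It was the same, 627 CPM, in 28-day replicate 3 and 14-day replicate 3, which held 3608 and 534 CPM of the members. By edgeR 0 of the 16 passed in any comparison. By DESeq2 S100b was lower than in sham at 14 and 28 days and Egr2 higher at 14 days. Of all tested genes, DESeq2 called 13.4% at 14 days and 6.62% at 28 days against sham. Fabp7, a lipid-binding protein of satellite glia, had the widest contrast, with 187 CPM in sham replicate 2 and 0.267 CPM in sham replicate 3. Adrenal cortex genes, 0 of 7 highest in sham replicate 2, summed to 6.05 to 10.5 CPM in all libraries, and the steroid enzyme Cyp11b1 had at most 0.28 CPM. Of 3 adrenal medulla genes, 2 were highest in sham replicate 2, Slc18a1, a vesicular monoamine transporter, at 44.9 CPM and Penk, an opioid peptide precursor, at 57.0 CPM, and the sum ran from 17.9 CPM in sham replicate 3 to 102 CPM in sham replicate 2. Pnmt, which makes adrenaline in chromaffin cells, had at most 1.92 CPM and was at or under 1 count in sham replicate 2, 14-day replicate 1 and 28-day replicates 2 and 3. Of the sensory neuron list, 2 of 9 were highest in sham replicate 2, and its sum of 5.52 to 179 CPM was almost wholly Avil (1.16 to 173 CPM), with Calca, Calcb, Tac1, Scn10a and Pou4f1 under 1 CPM in all libraries. Cholinergic genes summed to 21.0 CPM in 14-day replicate 1 and to at most 1.28 CPM elsewhere. The part of accompanying glia in the differences between libraries was not tested.

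**Figure D4:**
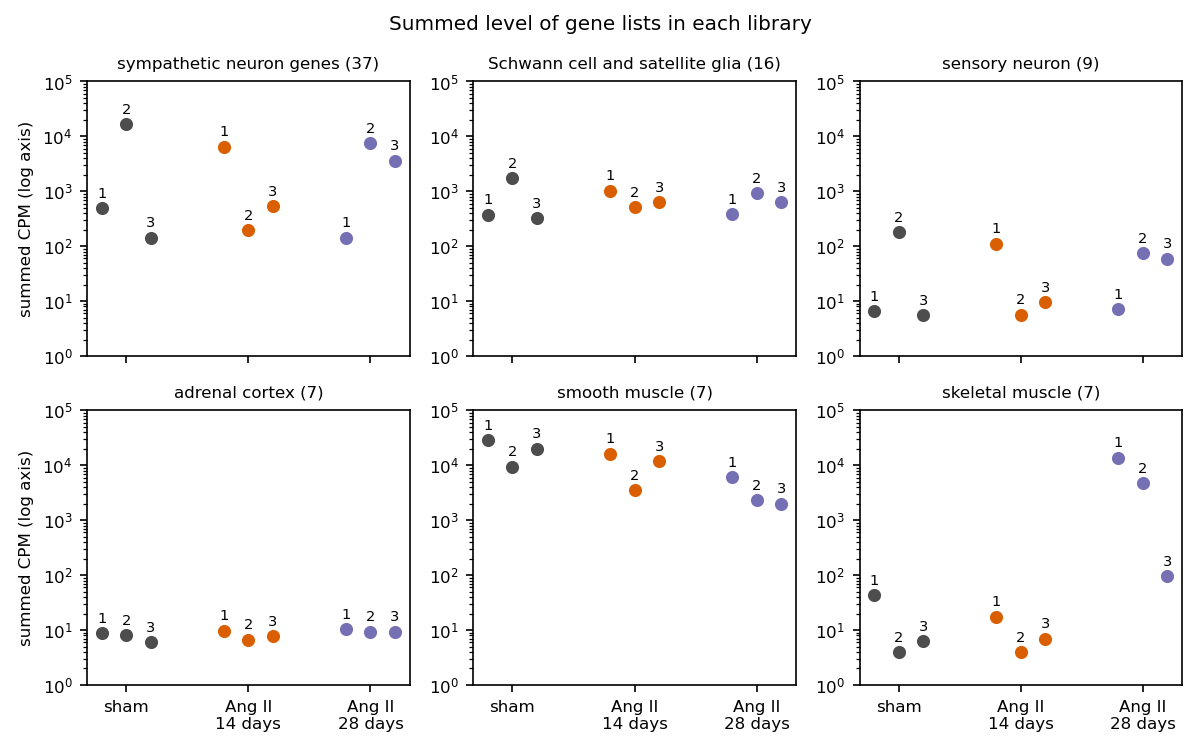
Summed CPM (vertical log axis) of 6 gene lists, with the number of genes in brackets, in each of the 9 libraries (points, numbered by replicate and coloured by group). The sympathetic neuron genes range from 143 to 16729 CPM and the glial genes from 321 to 1738 CPM, while the adrenal cortex genes stay between 6.05 and 10.5 CPM.

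Cell types of the vessel wall and its surroundings did not share the order of the members. None of the 7 smooth muscle, 5 endothelial, 7 brown fat, 7 skeletal muscle and 5 leukocyte genes was highest in sham replicate 2. Leukocyte genes summed to 194, 42.5 and 88.2 CPM in sham. The sums were 317, 2023 and 1157 CPM after 14 days of Ang II and 297, 886 and 539 CPM after 28 days. Within the sham group, smooth muscle genes were lowest in sham replicate 2 (9408 CPM, against 28605 and 20086 CPM), and at 28 days replicates 2 and 3 were below replicate 1 (2328 and 1988 against 6117 CPM). At 14 days the order differed, with replicate 1 highest at 16265 CPM. Whether these values bear on the members was not tested.

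Genes outside all lists showed the members' pattern closely. Likeness was measured as the root mean square difference, over the 9 libraries, between a gene's centred log2 CPM and the mean of the centred log2 CPM of the 36 members. The 10 most alike of 14611 genes were Fam163a (0.181), Sgpp2 (0.241), Nrsn1 (0.271), Ckmt1 (0.275), Asic2 (0.307), Ctnna2 (0.312), Nrsn2 (0.325), Entpd3 (0.333), Sncb (0.334) and Tmem151b (0.337). The median over those genes was 3.17 and over the members themselves 1.03, a value that 173 other genes undercut. Sgpp2, a phosphatase of sphingosine 1-phosphate, had 2.13, 127 and 0.178 CPM in sham, then 47.8, 0.216 and 3.73 after 14 days of Ang II and 0.657, 51.0 and 27.6 after 28 days. Among the members, Elavl4 (0.341), Vgf (0.406) and Slc18a2 (0.462) lay nearest to the mean pattern, and Dbh (2.06), whose range was wider, and Stx1a (2.81) lay farthest from it.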

How the data were processed

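Libraries were prepared from 1.0 ug of TRIzol-extracted total RNA with an MGIEasy mRNA kit, per the labels. The authors deposited expected counts per Entrez gene, 1 file per library. HISAT2 2.2.1, Bowtie2 2.4.5, RSEM 1.3.1 and GRCm38.p6 are named in the submitters' processing notes, without roles. Expected counts divide reads that fit several genes, and 9.77% to 11.0% of a library's values were not whole, so near-identical copies are uncertain. Here the counts were rounded, filtered with filterByExpr (14741 of 18830 genes), TMM-scaled and fitted over all 3 groups with edgeR 4.0.16 (robust quasi-likelihood, Benjamini-Hochberg, threshold 0.05) in R 4.3.3, and tested on simulated data. DESeq2 1.42.0, RLE scaling, no filter, the compared groups alone, a replicate block and left-out libraries were alternatives. With 3 libraries against 3, the smallest two-sided exact permutation p is 0.1. Log2 CPM used a prior count of 2. Coordinates and exon lengths come from the GRCm38.p6 annotation. Members and lists were chosen with earlier results of these data known. All 37 members are named, with fold changes for 6 fixed genes and, after its values were seen, Stx1a. Genes highest or lowest in a library, overlaps and motif matches are described with no test. Whether the replicate numbers pair the libraries could not be settled, and the main fit used no replicate block. Values of some genes of the fixed lists are not reported here.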

Additional observations from a re-analysis of the deposited data

How the results depend on the processing

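In 45 of 45 edgeR alternatives, and in DESeq2, 0 members passed in any comparison, and the smallest adjusted p of the 6 genes over 180 edgeR values was 0.259. Of all tested genes, the main edgeR fit called 0% in each comparison, so 0 members is no result particular to them. DESeq2 called 13.4% at 14 days and 6.62% at 28 days against sham, and 0.805% at 28 against 14 days. Shares over all genes in the other alternatives are not reported here. Leaving out 1 library at a time, log2 fold changes at 14 days against sham ranged from -4.51 to 3.88 for the members' median, -4.63 to 4.57 for Dbh, -4.45 to 4.08 for Th, -2.84 to 4.43 for Npy, -4.04 to 2.71 for Stmn2, -4.48 to 3.82 for Gap43 and -3.56 to 1.49 for Maoa. At 28 days against sham they ranged from -1.62 to 4.46 for the median, -1.61 to 5.23 for Dbh, -2.04 to 4.83 for Th, -1.79 to 5.12 for Npy, -1.31 to 3.24 for Stmn2, -1.68 to 4.41 for Gap43 and -1.74 to 2.46 for Maoa. Each highest value is that without sham replicate 2, and for Dbh at 28 days the value without 28-day replicate 1 was also above 0, at 0.04. Each lowest value left out the treated library richest in these genes, replicate 1 at 14 days or replicate 2 at 28 days. With these libraries and sham replicate 2 all left out, values at 14 days were 1.21 for Dbh, 1.13 for Th, 2.94 for Npy, 0.58 for Gap43, -0.20 for Stmn2 and -0.28 for Maoa. At 28 days they were 3.42 for the median, 4.17 for Dbh, 3.50 for Th, 3.92 for Npy, 2.47 for Stmn2, 3.32 for Gap43 and 1.48 for Maoa. The 3 libraries left out were picked by the members' own levels. The 28-day group kept replicate 3, with a member sum of 3608 CPM, against 487 and 143 CPM in the sham libraries kept. The values at 28 days thus describe the libraries kept and are no independent result. With sham replicate 2 alone left out the median at 28 days was also above 0, at 4.46, and with all 9 libraries it was -0.59. Correlations of same-numbered libraries' deviations from their group means ran from -0.553 to 0.646. Those of differently numbered libraries ran from -0.734 to 0.716. Deviations within a group of 3 are tied to each other, so these values cannot tell whether the numbers share a pairing. With a replicate block, values at 14 days were 1.96 for Dbh, 1.78 for Th, 2.10 for Npy, 0.58 for Stmn2, 1.25 for Gap43 and -0.07 for Maoa, and at 28 days 1.92, 1.52, 1.5, 0.82 and 1.24, with 0.25 for Maoa, and 0 members passed. In all, 251 of 288 alternative values kept their direction and side of the threshold or stayed within the spread between replicates. For the medians that spread was 3.775 log2 units. A change of sign, such as from -1.21 to 1.28 at 14 days with the replicate block, was therefore counted as kept. The 251 also include 48 counts of members passing, which were 0 throughout, so the total is no measure of stability. Leaving out the 2 libraries rich in skeletal muscle genes was chosen after seeing the data and changed no call. The cause of the reversals was not tested beyond the libraries named. A count of 0 allows up to 0.204 to 0.328 CPM, depending on the library.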

Other observations

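Slc18a1, the vesicular monoamine transporter of chromaffin and other endocrine cells, was present in the libraries rich in sympathetic neuron genes, with 44.9 CPM in sham replicate 2, 23.4 in 28-day replicate 2, 5.19 in 14-day replicate 1 and 2.73 in 28-day replicate 3. Between 28-day replicates 2 and 3, the 36 members with at least 10 counts in replicate 3 differed by a median of 2.16-fold. Their highest value was 4.2-fold for Vgf. Insm1, below that limit, differed by more, with 43 and 8 counts, or 3.08 and 0.607 CPM. In 14-day replicate 1, Vip, a peptide of cholinergic neurons, had 14.1 CPM, the vesicular acetylcholine transporter Slc18a3 had 3.22 CPM, the choline transporter Slc5a7 had 2.87 CPM and Chat, which makes acetylcholine, had 0.841 CPM. In sham replicate 2, with a median 2.46 times the level of the sympathetic neuron genes, these 4 genes had 0.501, 0.0715, 0.358 and 0 CPM. Each of these observations rests on single libraries.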
